A study of Homo sapiens with 6 samples.

Results

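The genes described are those of the amino acid branch of the mTOR pathway and of proteins that hold mTOR complex 1 in check: the Rag GTPase genes RRAGA, RRAGB, RRAGC and RRAGD, the Ragulator genes LAMTOR1, LAMTOR2 and LAMTOR3, the inhibitor genes DDIT4 and DEPTOR, and MTOR itself. They were taken by symbol from the deposited table of transcripts, where these 10 of 11848 gene names hold 18 of 29091 listed transcripts. All 10 had a mean of at least 1 FPKM (read fragments scaled by transcript length and library depth) over the samples. The genes were selected on results of the same comparison of shPCAT1 with shSCR, among them the FPKM of RRAGA, which is listed at 0 in 1 group. Differences of these 10 genes between the groups are therefore a description, with a standard error (SE) but no p-value. Where it is said that 1 of them was called in a fit over all genes, nothing is read from that call.

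To ask which mRNAs respond to the long non-coding RNA PCAT1, the study sequenced poly(A) RNA of LNCaP-AI, an androgen-independent line obtained from the human prostate cancer line LNCaP by long culture in medium stripped of androgen. One group of 3 samples was transfected with an shRNA against PCAT1 (shPCAT1) and the other group of 3 with a scramble shRNA (shSCR). Both groups thus carry an shRNA, and the model is a single cell line with a single PCAT1 shRNA. PCAT1 itself was not analysed here.

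The mTOR kinase, in its complex 1, drives protein synthesis and growth when nutrients and growth factors are both at hand. Amino acids act through the Rag GTPases, which work as a pair of RagA or RagB with RagC or RagD on the lysosome, where the Ragulator scaffold anchors them and the active pair recruits mTOR complex 1. Growth factors act through AKT, the TSC complex and the small GTPase RHEB. DDIT4 (also called REDD1), a protein induced by stress, restrains the complex through TSC, and DEPTOR binds mTOR directly.

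The labels do not say that the 3 samples of a group came from separate cultures, so errors and p-values reflect the differences among these particular libraries and could be technical. The depth of the libraries is unknown, as only FPKM were used. All 8 markers of the LNCaP line were listed, with KLK3 (PSA) at 353.6 to 554 FPKM and FOLH1 (PSMA) at 331 to 393. Of the markers of other cells, TP63, PTPRC and PECAM1 were not listed and KRT5 reached at most 0.699 FPKM. COL1A1 had 5.94 to 12.3 FPKM in shSCR and 2.27 to 4.12 in shPCAT1, and VIM 4.36 to 17.2 and 10.5 to 13.5. What part other cells have in the differences given here was not tested. The library of shSCR replicate 3 stood apart: over the 10825 genes tested, which share the libraries, its Pearson correlation with the others was 0.809 to 0.845, against 0.910 to 0.946 among the other 5. Its difference from the other shSCR libraries rose with the GC content of a gene (Spearman rho = 0.581 across 10596 genes). Over the same genes the difference of shPCAT1 from shSCR fell with GC content (Spearman rho = -0.532). It did so less without this library (rho = -0.252), so leaving it out does not remove the relation. Values without this library, or with a correction for GC content, are given beside many of the differences.

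RRAGA, which encodes RagA, is a gene of 1 exon and lies at chr9:19049393-19050981 (hg19, plus strand). The table holds 0 FPKM for it in each shSCR sample, against 27.4, 29.5 and 30.9 FPKM in shPCAT1 replicates 1, 2 and 3. Every shPCAT1 sample was thus far above every shSCR sample, with a coefficient of variation of 5.95% within shPCAT1. No fold is given, since an exact 0 in such a table can be an estimate that failed. On the scale log2(FPKM + 1) the fitted difference was 4.92 (SE 0.15), a size set by the pseudocount, since it was 8.20 with a pseudocount of 0.1. The shSCR values, all 0, add no spread, so the SE does not cover the uncertainty of these zeros.

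The sequence of RRAGA was compared with that of RRAGB, its closest relative among the 10 genes, because near-identical copies could exchange short reads. Their coding sequences were identical at 83.9% of 942 aligned positions, and the longest run of bases shared by the transcripts was 32 bases, shorter than the 50 bases of a read. The stretch around that run is shown, at coding positions 250 to 341 of RRAGA (chr9:19049907-19049998, GRCh37, plus strand) and 349 to 440 of RRAGB (chromosome X), counted from the first base of the start codon, with the 11 bases that differ in capitals.
RRAGA: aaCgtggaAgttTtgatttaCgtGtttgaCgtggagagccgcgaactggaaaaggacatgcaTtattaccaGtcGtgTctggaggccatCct
RRAGB: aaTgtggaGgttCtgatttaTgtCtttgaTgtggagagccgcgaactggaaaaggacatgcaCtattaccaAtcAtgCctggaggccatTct
Of the 1550 stretches of 50 bases in the RRAGA transcript, 0 had an exact copy elsewhere in GRCh37, and the same count was 0 for each of the other 9 genes. An error-free read of RRAGA therefore has 1 place in this genome. The pair RRAGC and RRAGD was less alike, with 76.0% identity and a longest shared run of 21 bases.

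Listing at 0 was common among genes of 1 exon. Of 133 tested genes whose highest transcript has 1 exon, 86 (64.7%) were at or under 0.01 FPKM in at least 1 library and at 5 FPKM or more in another, against 87 of 10463 genes with more exons (0.832%). In single libraries between 18.8% and 41.4% of the 1-exon genes were at or under 0.01 FPKM, and between 0.191% and 1.12% of the others. As an example chosen after its values were seen, the mitochondrial gene MT-ND5, which every respiring cell uses, was listed at 0 in shSCR replicate 3 and had 1008 to 1462 FPKM in the other 5 libraries. HNRNPA0, which encodes an RNA-binding protein and was also chosen so, had 60.8 FPKM in shSCR replicate 3 and 38.5 and 39.0 in shPCAT1 replicates 2 and 3, with 0 in the remaining libraries. The zeros of these examples did not follow the groups. RRAGA belonged to 5 genes that were at or under 0.01 FPKM in all 3 samples of 1 group and at 1 FPKM or more in all 3 of the other. RRAGA, RPL10L and STXBP5L were absent from the shSCR listing and RHOB and STEAP1B from the shPCAT1 listing. Of these, RRAGA, RPL10L and RHOB have 1 exon, which is 2.26% of the 1-exon genes, against 0.0191% of the others. What part failed estimates have in the RRAGA difference was not tested.

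**Figure D1:**
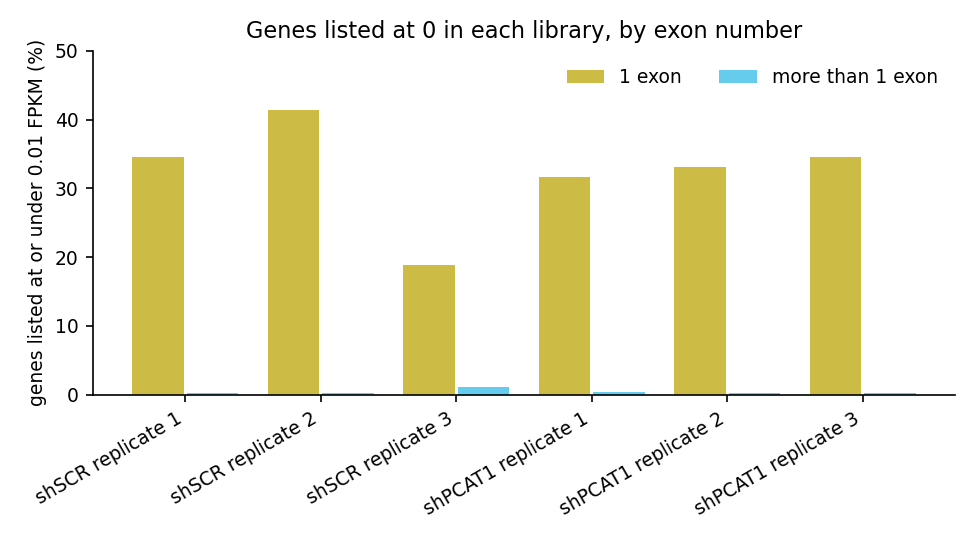
Share of tested genes listed at or under 0.01 FPKM in each of the 6 libraries, for 133 genes with 1 exon and 10463 genes with more than 1 exon in the highest transcript. The bars of the 1-exon genes lie between 18.8% and 41.4% in both groups, and those of the other genes at 1.12% or less.

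The gene next to RRAGA, HAUS6, lies on the opposite strand from 19053141, beyond the end of the RRAGA exon. HAUS6 encodes a subunit of the augmin complex of the spindle and had 6.77, 10.9 and 7.43 FPKM in shSCR and 15.9, 11.0 and 16.0 in shPCAT1. Its groups did not overlap, as was so for 32.5% of all genes, and the nearest samples were 10.9 and 11.0 FPKM. HAUS6 has a GC content of 37.3%, and genes in the nearest GC class (class median of 36.9%) had a median difference of 0.38. DENND4C, further along the chromosome, had 8.48, 8.10 and 4.39 FPKM in shSCR and 6.81, 6.64 and 7.48 in shPCAT1, and its groups overlapped.

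RRAGB, which encodes RagB, the partner that can stand in for RagA, lies at chrX:55744172-55785207. It had 4.94, 4.57 and 2.80 FPKM in shSCR and 6.41, 5.76 and 6.17 in shPCAT1. All shPCAT1 samples were above all shSCR samples, and the lowest value was that of shSCR replicate 3. The shPCAT1 mean was 1.49 times the shSCR mean, and the difference was 0.51 (SE 0.22) on the log2(FPKM + 1) scale and 0.31 (SE 0.09) without shSCR replicate 3. The RRAGB promoter holds 3 copies of CACGTG, the E-box that transcription factors of the TFEB family bind in promoters of lysosomal genes, searched on both strands in 250 bases before to 50 bases after the gene start. In the RefSeq table of such windows (GRCh38.p14), 7.26% of 35116 hold it at all and 0.0940% hold 3 or more. The RRAGB window (chrX:55717499-55717798, plus strand) is printed with CACGTG in capitals.
RRAGB: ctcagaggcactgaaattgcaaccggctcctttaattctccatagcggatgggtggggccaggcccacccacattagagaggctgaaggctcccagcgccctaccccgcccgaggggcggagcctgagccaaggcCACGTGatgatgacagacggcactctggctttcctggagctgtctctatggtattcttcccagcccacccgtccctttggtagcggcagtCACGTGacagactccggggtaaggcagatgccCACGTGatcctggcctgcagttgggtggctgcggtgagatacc
Windows of 7 of the 10 genes were searched, and those of RRAGC and LAMTOR1 also hold CACGTG, each in 1 copy. No window of RRAGA, RRAGD or DEPTOR was searched. A match in these letters is not a measured binding site.

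RRAGC and RRAGD encode the other partner of the Rag pair. RRAGC (chr1:39303870-39325495, minus strand) had 13.2, 10.9 and 3.70 FPKM in shSCR and 9.40, 8.55 and 10.1 in shPCAT1. The shPCAT1 samples lay inside the shSCR range, whose low end was shSCR replicate 3 at 0.307 times the mean of the other shSCR samples. The sign of the difference turned on that library, with 0.16 (SE 0.43) for all samples, 0.06 (SE 0.38) after GC correction and -0.33 (SE 0.12) without it.

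RRAGD (chr6:90074355-90121989, minus strand) had 5.06, 5.04 and 3.98 FPKM in shSCR and 3.35, 1.71 and 1.11 in shPCAT1. Every shPCAT1 sample was below every shSCR sample, and the shPCAT1 mean was 0.439 times the shSCR mean. The spread in shPCAT1 was wide, with a coefficient of variation of 56.5%, above that of 93.3% of all genes in this group. The difference was -0.96 (SE 0.30), -1.05 (SE 0.34) without shSCR replicate 3 and -1.13 (SE 0.28) after a correction for GC content.

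FPKM are scaled by transcript length, so levels of partners can be added. RRAGA and RRAGB together had 4.94, 4.57 and 2.80 FPKM in shSCR, all of it RRAGB, and 33.8, 35.3 and 37.1 in shPCAT1. RRAGC and RRAGD together had 18.2, 16.0 and 7.67 FPKM in shSCR and 12.8, 10.3 and 11.2 in shPCAT1. As listed, the first partner was thus at 0.307 ± 0.0502 of the second in shSCR and at 3.14 ± 0.422 times the second in shPCAT1 (mean ± SD, n = 3 each), a change that rests on the zeros of RRAGA.

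**Figure D2:**
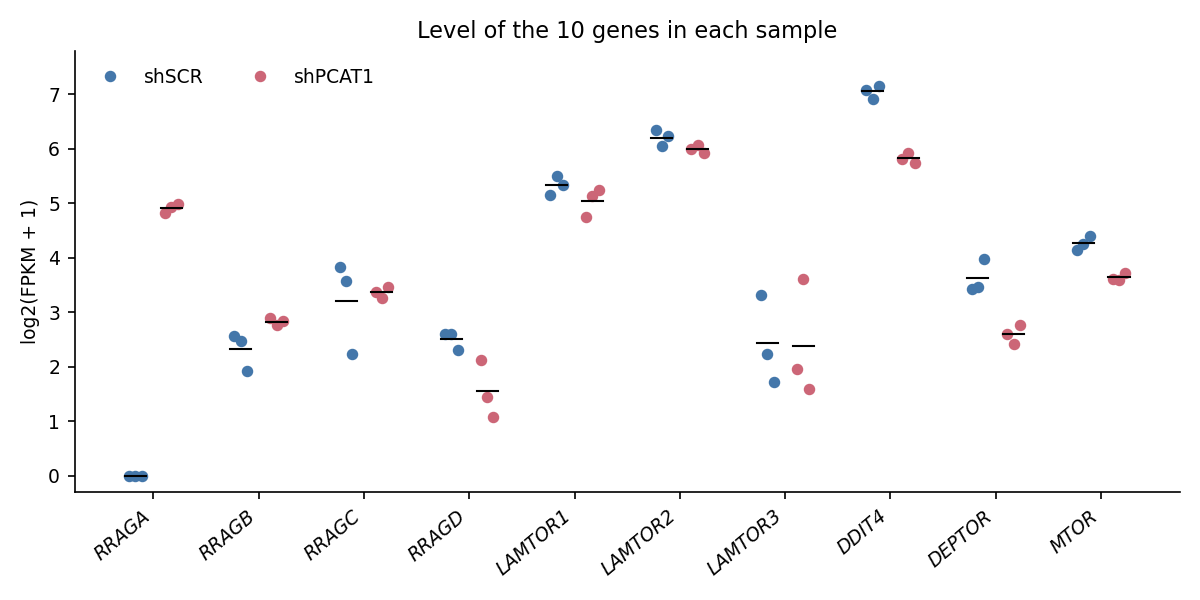
Level of each of the 10 genes on the log2(FPKM + 1) scale in the 3 shSCR and 3 shPCAT1 samples, each point a sample and each line the mean of 3. RRAGA is at 0 in all shSCR samples, the shPCAT1 samples of DDIT4, DEPTOR, MTOR and RRAGD lie below their shSCR samples, and the groups of RRAGC and of the 3 LAMTOR genes overlap.

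The Ragulator genes gave no separation of the groups. LAMTOR1, whose lipid-anchored product ties the scaffold to the lysosome, had 34.6, 44.1 and 39.3 FPKM in shSCR and 26.0, 34.3 and 36.9 in shPCAT1 (chr11:71808338-71814433, minus strand). LAMTOR2, a small subunit of the scaffold, had 80.1, 64.9 and 74.1 FPKM in shSCR and 63.2, 66.4 and 59.8 in shPCAT1 (chr1:156024543-156028301, plus strand). Both sets of values overlap between the groups, and the differences were -0.28 (SE 0.19) and -0.20 (SE 0.14). LAMTOR3, which pairs with LAMTOR2 in the scaffold, had 9.02, 3.73 and 2.28 FPKM in shSCR and 2.87, 11.2 and 2.0 in shPCAT1 (chr4:100799493-100815647, minus strand). The difference was -0.04 (SE 0.65), -0.40 (SE 0.75) without shSCR replicate 3 and -0.38 (SE 0.60) after GC correction. Its samples varied more within a group than the groups differed, with coefficients of variation of 70.9% and 94.9% against medians of 29.8% and 10.7% for all genes in shSCR and shPCAT1. After correction for GC content the differences of LAMTOR1 and LAMTOR2 were -0.01 (SE 0.21) and 0.12 (SE 0.19), so the sign of LAMTOR2 depended on it.

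DDIT4 had the highest level of the 10 genes in shSCR, with 134.9, 120.3 and 141 FPKM in replicates 1, 2 and 3 (chr10:74033678-74035794, plus strand, 3 exons). In shPCAT1 it had 55.5, 59.9 and 52.2 FPKM. The groups were far apart against their spread, with coefficients of variation of 8.12% and 6.98%, and the shPCAT1 mean was 0.423 times the shSCR mean. The difference was -1.23 (SE 0.14), and -1.18 (SE 0.09) without shSCR replicate 3. With a GC content of 58.1% DDIT4 is the most GC-rich of the 10 genes, and genes in the GC classes on either side of it (class medians of 57.1% and 60.3%) had median differences of -0.31 and -0.36. Corrected for GC content, the difference was -0.90 (SE 0.16), and -1.05 (SE 0.10) when shSCR replicate 3 was also left out. DDIT4 was thus lower in shPCAT1 in each of these fits, which share libraries. As DDIT4 was selected on this comparison, nothing is read from its distance to the median of genes of like GC content. What part GC content has in the difference was not tested.

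DDIT4 is known as a target of hypoxia and of several other stress responses, and its promoter is shown for that reason. The RefSeq window (chr10:72273674-72273973, GRCh38.p14, plus strand) holds 1 copy of ACGTG, the core of the hypoxia response element, on either strand, printed in capitals, and no CACGTG, a motif that contains ACGTG. Of all windows 21.4% hold ACGTG.
DDIT4: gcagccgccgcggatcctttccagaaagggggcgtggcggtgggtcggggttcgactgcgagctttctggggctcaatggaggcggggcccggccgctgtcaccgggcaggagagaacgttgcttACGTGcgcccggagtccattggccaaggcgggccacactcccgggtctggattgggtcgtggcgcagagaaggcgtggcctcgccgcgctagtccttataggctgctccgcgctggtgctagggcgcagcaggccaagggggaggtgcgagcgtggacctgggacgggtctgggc

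MTOR, the gene of the kinase, had 16.6, 18.2 and 20.1 FPKM in shSCR and 11.3, 11.0 and 12.2 in shPCAT1 (chr1:11166592-11322564, minus strand, 58 exons in the highest transcript). All shPCAT1 samples were below all shSCR samples, at 0.628 times the mean. The difference was -0.62 (SE 0.15), -0.56 (SE 0.09) without shSCR replicate 3 and -0.46 (SE 0.11) after GC correction. In bulk RNA a lower level in each cell and a lower share of the cells that express a gene cannot be told apart, here as for every gene named.

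DEPTOR was the other inhibitor among the 10 genes, and its groups stood apart as those of DDIT4 did. It had 9.78, 10.1 and 14.7 FPKM in shSCR and 5.10, 4.36 and 5.77 in shPCAT1. Every shPCAT1 sample was lower, at 0.441 times the shSCR mean, and the highest sample was shSCR replicate 3, at 1.48 times the mean of the other shSCR samples. The difference was -1.03 (SE 0.21), and -0.85 (SE 0.13) without that library. Unlike for DDIT4, correction for GC content left the difference at -1.08 (SE 0.21), DEPTOR having a GC content of 45.7%.

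**Figure D3:**
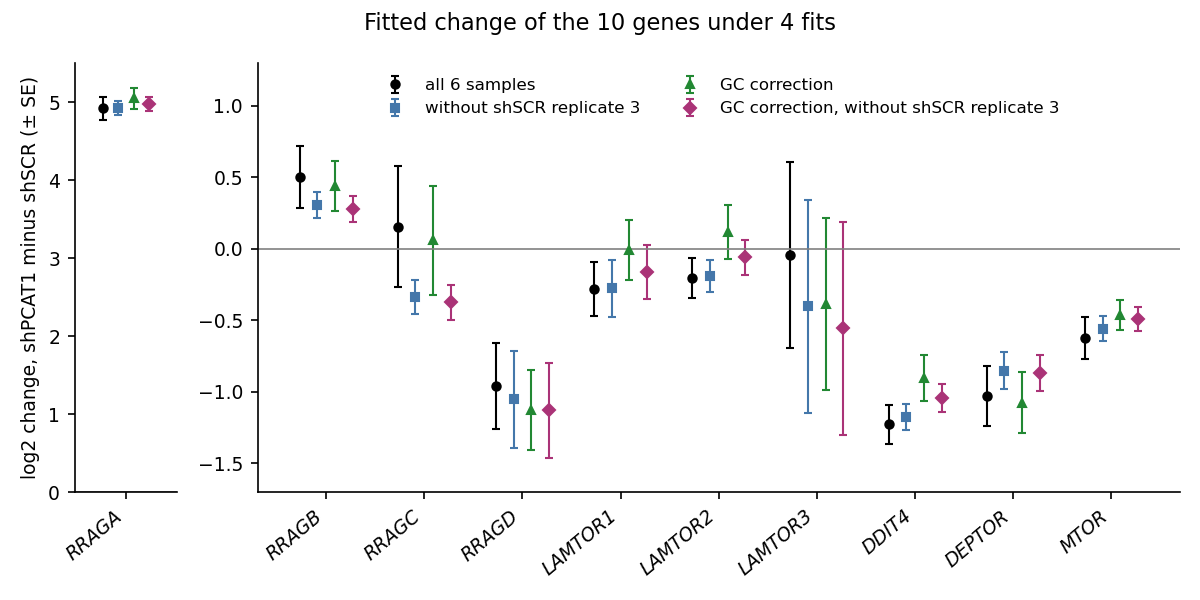
Fitted difference between shPCAT1 and shSCR on the log2(FPKM + 1) scale, with its standard error, for the 10 genes in 4 fits: all 6 samples, without shSCR replicate 3, with GC correction, and with both. RRAGA has its own axis. DDIT4, DEPTOR, MTOR and RRAGD are below 0 in all 4 fits, and the sign of RRAGC and LAMTOR2 depends on the fit.

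In the limma fit over all 10825 genes, 2 of the 10 genes passed a Benjamini-Hochberg adjusted p of 0.05, RRAGA higher and DDIT4 lower, against 0.878% of all genes tested. Without shSCR replicate 3 DEPTOR and MTOR passed as well, 4 of the 10 genes against 8.03% of all genes. DDIT4 did not pass after GC correction or when any other single library was left out. The groups of 6 of the 10 genes did not overlap, RRAGA and RRAGB higher and RRAGD, DDIT4, DEPTOR and MTOR lower in shPCAT1, against 32.5% of all genes. As the genes were chosen with this comparison in view, nothing is read from these counts.

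**Figure D4:**
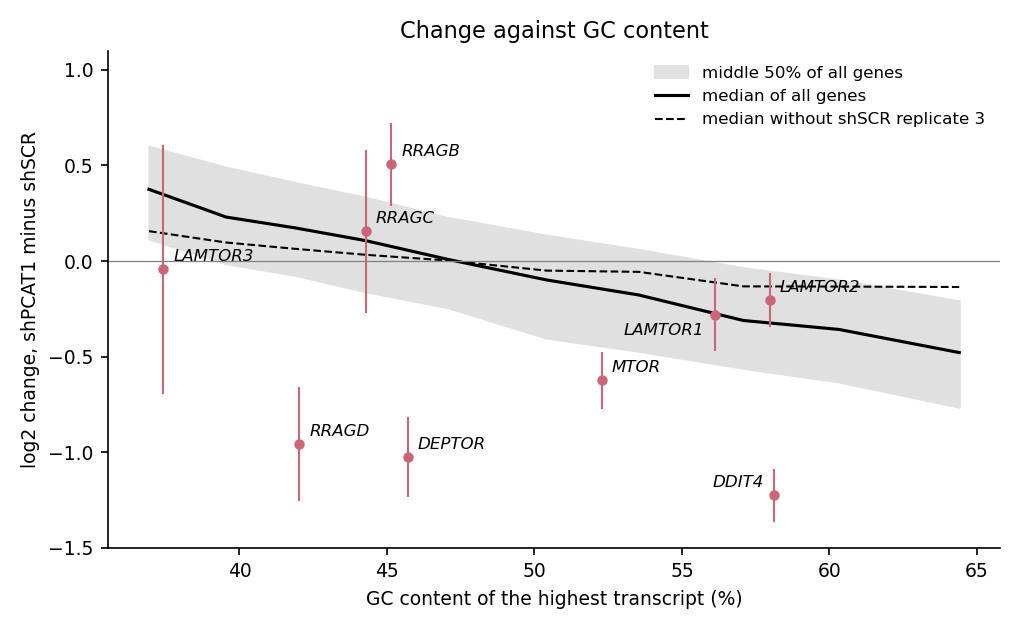
Difference between shPCAT1 and shSCR (log2 scale, with its standard error) against the GC content of the highest transcript for 9 of the 10 genes, RRAGA being off the axis at 4.92. The grey band holds the middle 50% of all genes in classes of GC content, the solid line is their median and the dashed line the median without shSCR replicate 3. DDIT4, DEPTOR, RRAGD, MTOR and LAMTOR3 lie below the band, RRAGB above it, and RRAGC, LAMTOR1 and LAMTOR2 inside it.

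The order of the levels was set against the spread. In shSCR the order was DDIT4 (132 ± 10.7 FPKM, mean ± SD, n = 3), LAMTOR2 (73.0 ± 7.63), LAMTOR1 (39.3 ± 4.79), MTOR (18.3 ± 1.76) and DEPTOR (11.5 ± 2.77), followed by RRAGC (9.27 ± 4.95), LAMTOR3 (5.01 ± 3.55), RRAGD (4.69 ± 0.620), RRAGB (4.10 ± 1.14) and RRAGA at 0. From DDIT4 down to DEPTOR the samples of neighbours did not overlap, while those of DEPTOR and RRAGC, and those from RRAGC to RRAGB, did. In shPCAT1 LAMTOR2 (63.1 ± 3.27) came before DDIT4 (55.9 ± 3.90), though their samples overlapped, and RRAGA (29.3 ± 1.74) stood next to LAMTOR1 (32.4 ± 5.69), also with overlap. MTOR (11.5 ± 0.624), RRAGC (9.34 ± 0.758) and RRAGB (6.11 ± 0.329) followed without overlap. LAMTOR3 (5.37 ± 5.10), DEPTOR (5.08 ± 0.707) and RRAGD (2.06 ± 1.16) came last.

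Of the genes 5 are listed with 1 transcript and the others with 2 to 4, and of the 18 transcripts 15 had a mean of at least 1 FPKM. The same transcript was the highest in both groups for each gene with several. MTOR-001 held 93.4 ± 6.37% of the gene sum in shSCR and 97.0 ± 2.75% in shPCAT1, and DEPTOR-001 held 93.8 ± 5.32% and 97.4 ± 1.66% (mean ± SD, n = 3 each). The minor forms MTOR-002 and DEPTOR-002 were highest in shSCR replicate 3, at 2.74 and 1.80 FPKM, and at most 0.868 FPKM in any other library. LAMTOR1-001 held 74.0 ± 6.87% and 74.2 ± 7.94% of its gene sum. LAMTOR2-001 held 95.5 ± 3.21% in shSCR and 90.1 ± 5.71% in shPCAT1, and it alone of the 3 LAMTOR2 forms had a difference below 0 (-0.29, SE 0.17, against 0.73, SE 0.59, and 0.64, SE 0.48, for LAMTOR2-003 and LAMTOR2-002). LAMTOR3-003 was listed at 0 in 4 libraries and had 1.24 FPKM in shSCR replicate 2 and 6.18 in shPCAT1 replicate 2, so that the total of LAMTOR3 in the latter sample owed more to this form than to LAMTOR3-001 (5.05 FPKM). In the limma fit of 20474 single transcripts, where 0.0977% were called at an adjusted p of 0.05, 1 of the 15 was called, RRAGA-001. As the FPKM of RRAGA entered the choice of the genes, nothing is read from this call. DDIT4-001 has the values of its gene, and its error in that fit was larger (SE 0.16).

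The other genes of the pathway were taken from lists put together by function, though with earlier results of these data known. Of these genes, 64 in 11 lists were measured. The fit called 1 of them higher and 0 lower at an adjusted p of 0.05 in limma, with 2 higher and 9 lower at an unadjusted p of 0.05. These 11 are 17.2% of the 64 genes, and the same share of all genes, 17.2%, had such a p (783 higher and 1084 lower). Their median difference was -0.12, beside -0.05 for all genes tested, and 41 of 64 lay below 0 (64.1%, against 54.2% of all genes). Without shSCR replicate 3 the median was -0.14, and 2 were called higher and 2 lower. The gene called was SLC38A9, a lysosomal arginine transporter that binds Ragulator and the Rag GTPases.

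SLC38A9 had 12.8, 12.4 and 16.9 FPKM in shSCR and 32.7, 33.7 and 33.4 in shPCAT1. The groups were far apart, and the difference of 1.20 (SE 0.17) had an adjusted p = 0.0449 in limma. It was 1.34 (adjusted p = 0.00649 in limma) without shSCR replicate 3. The call was lost with a pseudocount of 0.1 (limma adjusted p = 0.0538), after GC correction (0.0636) and without any other single library (0.120 to 0.234), at differences between 1.09 and 1.26. Of its 7 listed transcripts, the short forms SLC38A9-012 and SLC38A9-013 (571 and 508 bases) made up most of the increase, at means of 3.76 and 3.80 FPKM in shSCR and 11.3 and 10.3 in shPCAT1. The full-length SLC38A9-001 had 5.65, 5.14 and 0.853 FPKM in shSCR and 5.37, 8.86 and 10.4 in shPCAT1, and its groups overlapped.

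The regulators that act on the Rag GTPases gave no further call over all samples. FLCN, whose product with FNIP1 or FNIP2 stimulates GTP hydrolysis by RagC and RagD, had 13.1, 11.9 and 15.1 FPKM in shSCR and 7.72, 4.56 and 7.20 in shPCAT1 (-0.96, SE 0.22, limma adjusted p = 0.131). NPRL2, a subunit of GATOR1, which does the same to RagA and RagB, had 13.2, 10.7 and 17.3 FPKM against 5.59, 9.15 and 4.16 (-1.05, SE 0.31, limma adjusted p = 0.191). The groups of both genes did not overlap, as was so for 32.5% of all genes. With GC correction the differences were -0.69 for FLCN and -0.86 for NPRL2. MIOS, a subunit of GATOR2, which counters GATOR1, had 15.0, 15.4 and 8.84 FPKM in shSCR and 22.5, 21.4 and 23.4 in shPCAT1 (0.77, SE 0.23, limma adjusted p = 0.198), and was called without shSCR replicate 3 (0.54, adjusted p = 0.0286 in limma). After GC correction the difference of MIOS was 0.49. WDR59, also of GATOR2, had a difference of -0.46 (SE 0.19), and of -0.30 without shSCR replicate 3. KPTN of the KICSTOR complex differed by -0.40 (SE 0.26), by -0.14 without that library and by -0.01 after GC correction. FNIP2 differed by -0.52 (SE 0.25).

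Of the remaining Ragulator and mTOR complex 1 subunits, LAMTOR4 had 53.5 ± 4.83 and 51.4 ± 1.72 FPKM in shSCR and shPCAT1, and LAMTOR5 58.1 ± 14.9 and 57.8 ± 19.6. These differences were -0.05 (SE 0.14) and -0.03 (SE 0.29), the latter with samples between 43.4 and 80.2 FPKM in shPCAT1. Their signs were not stable, as LAMTOR4 was at 0.31 after GC correction and LAMTOR5 at 0.17 without shSCR replicate 3. RPTOR, the scaffold that picks substrates, differed by -0.46 (SE 0.46), a value set by 21.1 FPKM in shSCR replicate 3 against 5.83 to 6.65 in the other 5 libraries, by 0.08 without that library and by -0.09 after GC correction. MLST8 differed by -0.48 (SE 0.32), by -0.24 without shSCR replicate 3 and by -0.01 after GC correction. AKT1S1 (PRAS40), the third gene measured in the list of inhibitors, had 26.5 ± 10.4 and 28.2 ± 8.45 FPKM. Its difference was 0.12 (SE 0.37), 0.38 without shSCR replicate 3 and 0.55 after GC correction. The lower levels of DDIT4 and DEPTOR were thus not seen for it in these samples. Upstream, TSC2 differed by -0.57 (SE 0.28), by -0.27 without shSCR replicate 3 and by -0.18 after GC correction. RHEB differed by -0.29 (SE 0.26), and by -0.11 without that library.

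Among 13 genes of mTOR complex 1 substrates 0 were called in limma, 4 (30.8%, against 17.2% of all genes) had an unadjusted p of at most 0.05 and 10 (76.9%, against 54.2%) lay below 0, with a median of -0.52. The median was -0.32 without shSCR replicate 3 and -0.13 after GC correction. ATG13, an autophagy initiation factor, had the smallest p (20.1 ± 2.20 and 13.4 ± 2.04 FPKM, -0.56, SE 0.18, limma adjusted p = 0.208), followed by the S6 kinase gene RPS6KB2 (-0.59, SE 0.21, and -0.16 after GC correction). The 17 genes of the lysosomal proton pump had a median of -0.11, and of -0.21 without shSCR replicate 3, with ATP6V1H at -0.44 (SE 0.15) and ATP6V1F at 1.42 (SE 0.84). Of the 3 genes of mTOR complex 2, RICTOR differed by 0.58 (SE 0.34), a value set by 0.977 FPKM in shSCR replicate 3 against 3.10 and 3.54 in the other shSCR samples, by 0.21 without that library and by 0.20 after GC correction. MAPKAP1 differed by 0.15 (SE 0.19), by 0.33 without shSCR replicate 3 and by 0.25 after GC correction, and PRR5 by 0.14, and by 0.67 after GC correction. Phosphorylation of mTOR complex 1 substrates, the measure of its activity, is not read by RNA.

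**Figure D5:**
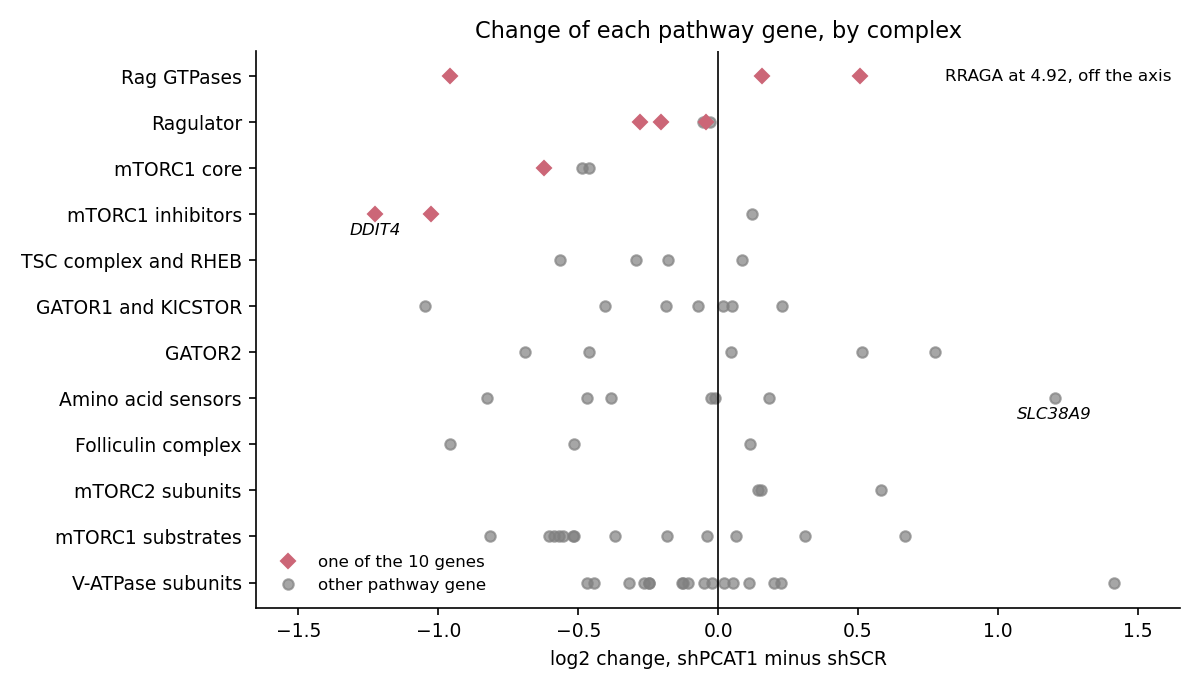
Difference between shPCAT1 and shSCR on the log2(FPKM + 1) scale for 64 other genes of the pathway (grey) and 9 of the 10 genes described (red), in 12 rows by complex or role. Genes called in limma are named, with RRAGA off the axis at 4.92. SLC38A9 is the grey point called, at 1.20.

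Genes with a pattern like that of a member were sought among all genes tested, by the mean absolute difference of relative levels (FPKM divided by the gene's own mean) over the 6 samples. The 3 nearest to RRAGA were STXBP5L, ADM5 and DOCK10, at differences of 0.134, 0.142 and 0.144. Those nearest to DDIT4 were ASCL2 (0.0408), KLF4 (0.0431) and CDKN1A (0.0440), and those nearest to DEPTOR were ADCY7 (0.0285), CENPN (0.0352) and ADGRA2 (0.0468). CENPN, for example, had 118.7, 112 and 169.7 FPKM in shSCR and 57.5, 54.9 and 62.1 in shPCAT1. Like DEPTOR, it was highest in shSCR replicate 3. CDKN1A had 89.2, 83.3 and 88.3 FPKM in shSCR and 36.2, 34.0 and 34.3 in shPCAT1. These are likenesses over 6 samples and say nothing of a shared control.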

How the data were processed

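The authors deposited FPKM per transcript, computed with Ballgown. For alignment, HISAT2 2.0.4 and hg19 stand in the submitters' processing notes and another aligner in the study's methods, and which was used was not settled. Every listed transcript is protein coding and has a mean of at least 0.5 FPKM in 1 group or the other. The deposited group means, fold changes, p-values and q-values of the authors' own comparison were not used. Here FPKM were summed per gene name, 10825 genes whose mean over the 6 samples reached 1 FPKM were kept, and log2(FPKM + 1) was fitted with limma 3.58.1 in R 4.3.3 (trend and robust), shPCAT1 against shSCR. The same was done for 20474 transcripts. This scale understates the change of low genes. With 3 samples a group, exact permutation has a smallest p of 0.1, so it was left out. The fits were tested on simulated data.

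The 10 genes, the pathway lists and the alternatives were chosen with earlier results of these data known. The named genes were the 10 members, every called gene of a pathway list or else up to 2 with the smallest p, the 3 genes nearest in pattern to RRAGA, DDIT4 and DEPTOR, and the genes listed at 0 like RRAGA. Exon numbers, GC content and transcript sequences came from GENCODE on GRCh37, matched by transcript ID for 28240 of 29091 transcripts. GC correction subtracted a lowess curve of each sample's deviation from the gene mean on GC. Copies of 50-base stretches were searched with blastn 2.17.0. Alternatives changed the pseudocount (0.1), the filter (none, or 5 FPKM), the scaling (upper quartile or quantile), the variance model of limma (neither trend nor robust) or the GC correction, added the replicate number as a block, or left out each sample in turn.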

Additional observations from a re-analysis of the deposited data

How the results depend on the processing

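The count of called genes (95) was within 1.5 times with no filter, upper quartile scaling, quantile normalization, limma without trend or robust fit, and GC correction. It was 56 with a pseudocount of 0.1, 53 with a filter at 5 FPKM, 4 to 869 when each sample was left out in turn, and 650 with GC correction and shSCR replicate 3 left out, an alternative chosen after seeing the data. The 1 pathway gene called became 0 with a pseudocount of 0.1 or GC correction, 0 to 4 when each sample was left out, and 2 with GC correction and shSCR replicate 3 left out. Of transcripts, 20 were called, against 9 with a pseudocount of 0.1, 13 with no filter, 5 with a filter at 5 FPKM and 1 to 86 with each sample left out.

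The replicate numbers did not pair the samples (correlations of same-numbered deviations of -0.0238, -0.0142 and 0.0209). With the replicate number as a block 2 genes, 0 pathway genes and 0 transcripts were called by limma (at an unadjusted p of at most 0.05 1525, 5 and 1592), and 2 genes and 0 pathway genes with GC correction beside the block. The differences of RRAGA, DDIT4 and SLC38A9 kept their sign in every alternative run. With a pseudocount of 0.1 the fitted difference of RRAGA was 8.20 instead of 4.92, since it is listed at 0 in shSCR. The unknown depth limits what can be said of low genes such as RRAGD and LAMTOR3.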

Other observations

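Some pathway genes outside the 10 varied more within a group than between the groups. EIF4EBP2, which encodes a translation repressor that mTOR complex 1 phosphorylates, had 1.46, 32.5 and 15.2 FPKM in shSCR and 28.8, 28.2 and 1.93 in shPCAT1. ATP6V1F, a subunit of the lysosomal proton pump, had 1.93, 2.31 and 4.91 FPKM in shSCR and 33.1, 2.27 and 8.75 in shPCAT1. Both, and SESN3 below, were chosen after their values were seen. SESN3, a sestrin of leucine and stress sensing, had 118, 103.6 and 38.9 FPKM in shSCR and 76.8, 76.7 and 77.0 in shPCAT1. Its difference was -0.02 with all samples, -0.52 (adjusted p = 0.0318 in limma) without shSCR replicate 3 and -0.38 (adjusted p = 0.529 in limma) after GC correction. ATP6V0C, of the proton pump, was also called lower without that library (-0.43, adjusted p = 0.0296 in limma). It differed by 0.20 with all samples and by 0.64 after GC correction.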
